A study of Homo sapiens with 8 samples.

Results

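The genes described here encode the proteins of the mitochondrial ribosome, read from microarray profiles of U-87MG cells, a long-established line from a human glioblastoma. The cells were exposed for 24 h either to 50 µM indole-3-carboxaldehyde (I3CA), an aldehyde made from tryptophan (4 arrays), or to its solvent DMSO (4 arrays). The series concerns activation of the aryl hydrocarbon receptor (AHR) in glioblastoma cells; AHR is a DNA-binding protein that small molecules switch on. The labels name no change to the line in either group, and the comparison rests on 1 cell line, 1 dose and 1 time. In a bulk sample, fewer cells of a kind and less RNA per cell cannot be told apart. Members were all genes whose symbol begins with MRPL or MRPS followed by a digit and that had a row of their own in the deposited table. This gave 70 genes of the 11822 in the table, with 1 probe set (a group of array probes for 1 transcript) each. RefSeq lists 77 protein-coding genes under such symbols today. Of these, 69 were measured under the same symbol, and the other member, MRPS36, is now called KGD4. MRPL12, MRPL30, MRPL53, MRPS24 and MRPS28 were not analysed here because their rows are shared with a second gene symbol. MRPS18A has a shared row too, which was not used, beside its own. MRPL54 is also not analysed here, and MRPL57 and MRPL58 appear below under their older symbols MRP63 and ICT1.

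The mitochondrial ribosome is built from nuclear-encoded proteins, which are made in the cytosol and imported, and from RNAs transcribed from mitochondrial DNA. It translates the few messages of the mitochondrial genome, all of them for subunits of the respiratory chain and ATP synthase. Its large subunit joins amino acids and its small subunit reads the message. As background, many of its proteins descend from bacterial ribosomal proteins, and the others are found only in mitochondria. By the assignment used here, 45 members belong to the large subunit and 25 to the small one. It counts 42 members as having bacterial homologues and 28 as specific to mitochondria. MRPL55 is counted among the 42, although it is usually held to be specific to mitochondria. MRPS18A and MRPS18B are counted among the 28, although they are relatives of the bacterial protein S18. MRPS30 and MRPS18A carry small-subunit names but sit in the large subunit and are counted there. MRPS36 is counted as small-subunit and mitochondrion-specific, although it is now assigned to the alpha-ketoglutarate dehydrogenase complex.

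Each value is a log2 expression value made by the authors with RMA, in which 1 unit is a 2-fold difference. The median log2 value of an array over all rows lay between 8.80 and 8.83. Averaged over the 8 arrays, the members' rows lay between 7.66 (MRPS26) and 11.01 (MRPL3), a range that is not an order of RNA amounts, since rows of different genes have different probes. The spread between replicates of a group had a median SD of 0.14 over the members and 0.15 over all genes. The table gives no detection call, so a row is not shown to be expressed. Of the line's markers, VIM, CD44, FN1 and TNC had means of 13.1, 11.2, 12.9 and 12.2 with I3CA and 13.1, 11.2, 12.8 and 12.1 with DMSO. Lower rows were those of GFAP, a glial marker, with means of 8.34 with I3CA and 8.28 with DMSO, and of NES, a marker of neural progenitors, with 8.19 with I3CA and 8.08 with DMSO. PTPRC, a leukocyte marker, had 8.44 with I3CA and 8.38 with DMSO, and the epithelial marker EPCAM 7.71 with I3CA and 7.70 with DMSO. The epithelial markers CDH1 and KRT18 had 8.67 and 8.02 with I3CA and 8.70 and 7.99 with DMSO. Of the neuron markers, RBFOX3 and SNAP25 lay above the array medians, at 9.16 and 9.38 with I3CA and 9.10 and 9.30 with DMSO, and SYT1 had 8.24 with I3CA and 8.28 with DMSO. No leukocyte, epithelial or neuron marker that had a row passed the test described next.

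No mitoribosomal protein gene passed the test for a difference between I3CA and DMSO. The test was limma's moderated fit over all 11822 genes with Benjamini-Hochberg adjustment, and 0 of 70 members had an adjusted p under 0.05, where 0.00846% of all genes (1 gene, not a member) did. The smallest adjusted p of a member was 1.00. At an unadjusted p under 0.05 the fit counted 0 members higher, against 1.74% of all genes, and 2 members lower, against 1.42% of all genes. There was no member whose 4 I3CA arrays all lay above its 4 DMSO arrays and none whose 4 all lay below, where 0.964% and 0.956% of all genes did.

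The intervals of the differences were narrow. Differences are I3CA minus DMSO on the log2 scale, and their standard error (SE) ran from 0.07 to 0.19 over the members, with a median of 0.10. In 67 of 70 members the 95% interval of the difference lay wholly inside ±0.5, which is 1.41-fold either way, and in 22 it lay inside ±0.25. The same held within ±0.5 for 88.1% of all genes, and within ±0.25 for 2966 of the 11822. The median SE over all genes was 0.10 as well. The 3 members with an interval reaching past ±0.5 were MRPS18B, MRPL49 and MRPS9. Over all 70 members the lowest bound of an interval was -0.55 and the highest 0.54.

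**Figure D1:**
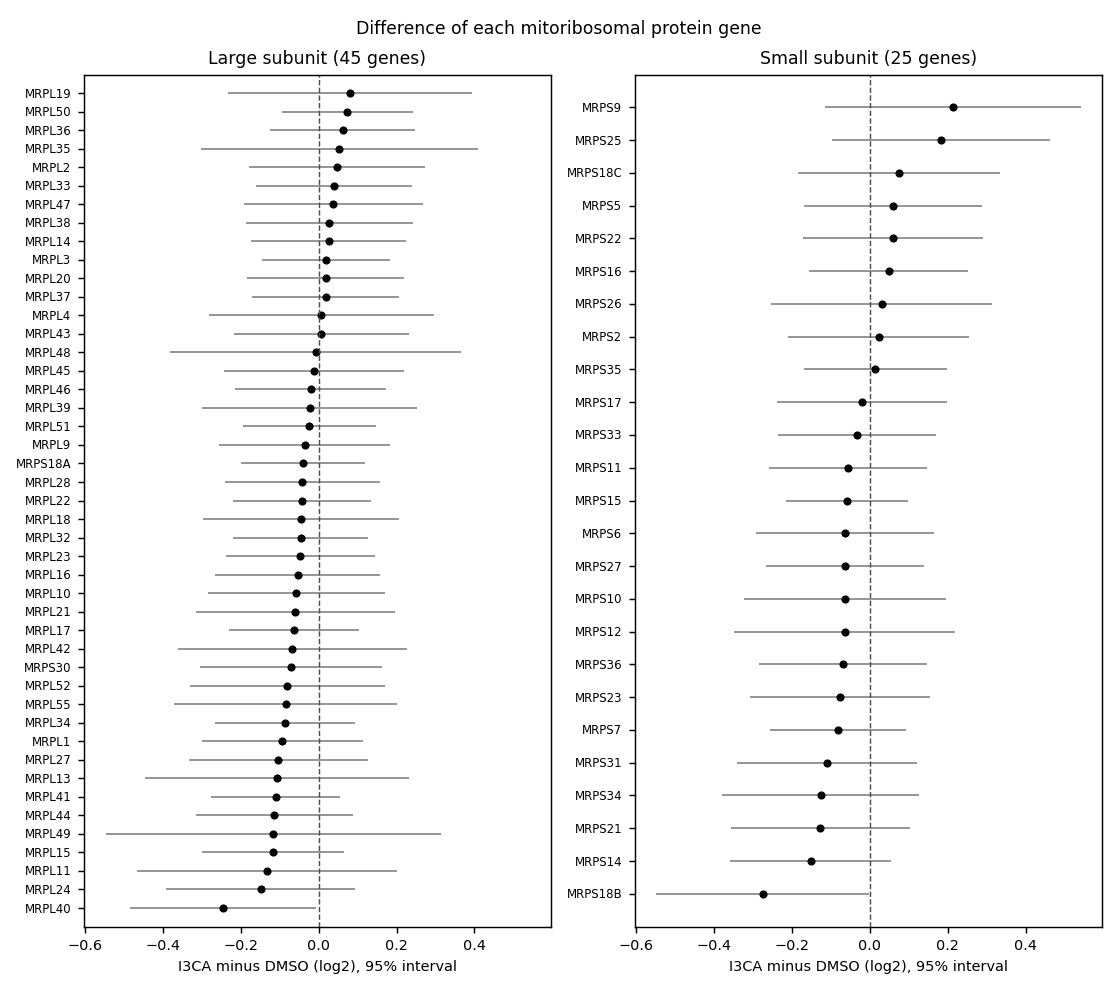
Difference in log2 expression, I3CA minus DMSO, of each member with its 95% interval (4 arrays per group), for 45 large subunit genes at left and 25 small subunit genes at right. Differences run from -0.28 to 0.21, and only the intervals of MRPL40 and MRPS18B do not reach 0.

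The members' differences lay slightly below 0 more often than above it. Their median was -0.05, with 47 members below 0 and 23 above, or 67.1% below. Over all genes the median was -0.01 and 53.4% lay below 0. Large subunit members had a median of -0.04 (31 of 45 below 0) and small subunit members one of -0.06 (16 of 25 below 0). This order was not stable. Without DMSO replicate 3 the medians were -0.07 (large) and -0.05 (small), and without I3CA replicate 1 they were -0.02 and -0.04. By the mean over members the differences were -0.040 (large) and -0.030 (small). Members counted as having bacterial homologues had a median of -0.05 (27 of 42 below 0), with MRPL55 at -0.09. Those counted as specific to mitochondria had a median of -0.04 (20 of 28 below 0). By the mean over members these classes stood in the other order, at -0.030 for the homologues and -0.046 for the specific ones. These are descriptions, with no test of the list.

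**Figure D2:**
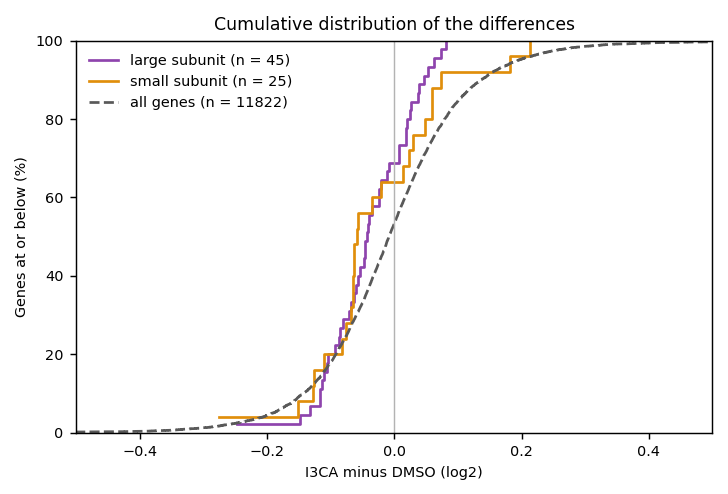
Cumulative share of genes (in %) at or below each difference in log2 expression, I3CA minus DMSO, for the 45 large subunit genes, the 25 small subunit genes and all 11822 genes. Both subunit curves lie a little to the left of the curve of all genes near their medians of -0.04, -0.06 and -0.01; the axis stops at ±0.5.

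Means over the members in each array showed that the groups overlapped. With I3CA the 4 arrays averaged 9.36, 9.36, 9.40 and 9.46 over the 70 members, against 9.45, 9.45, 9.38 and 9.44 with DMSO (replicates 1 to 4 in each group). The group means were 9.39 ± 0.05 with I3CA and 9.43 ± 0.03 with DMSO (SD, n = 4 each), a difference of -0.04. The highest array of all was I3CA replicate 4, and the lowest DMSO array, replicate 3, lay above I3CA replicates 1 and 2 and below I3CA replicates 3 and 4. Large subunit means were 9.44, 9.43, 9.48 and 9.55 with I3CA and 9.54, 9.54, 9.46 and 9.53 with DMSO. Small subunit means were 9.21, 9.23, 9.26 and 9.30 with I3CA and 9.28, 9.30, 9.25 and 9.29 with DMSO. In both subunits I3CA replicate 4 was the highest of the 8 arrays and DMSO replicate 3 the lowest of its group. Averaged over all genes, the arrays lay at 9.05 ± 0.01 with I3CA and 9.05 ± 0.003 with DMSO (SD, n = 4 each).

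**Figure D3:**
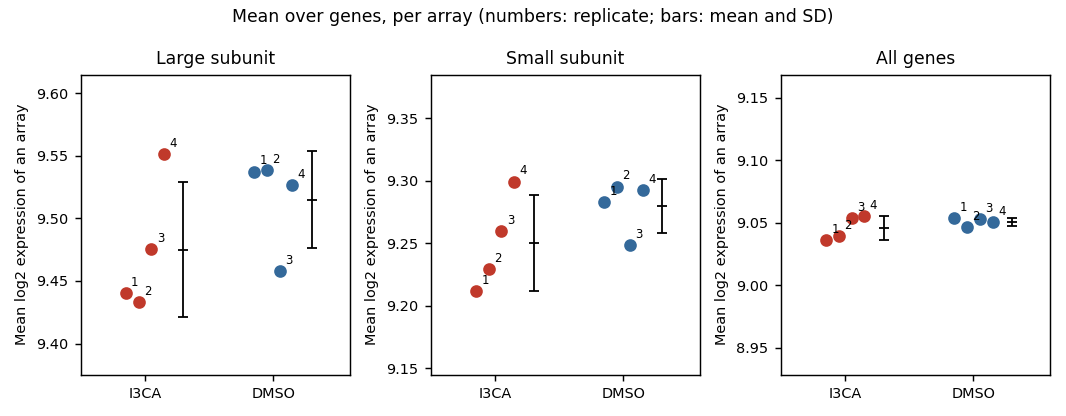
Mean log2 expression over the large subunit members, the small subunit members and all genes in each array (points, labelled with the replicate number), with the mean and SD of each group of 4 arrays (bars). I3CA points span 9.43 to 9.55 in the large subunit and overlap the DMSO points at 9.46 to 9.54; the 3 panels cover the same height of log2 values.

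Single members did not follow 1 array order. I3CA replicates 1 and 2 each held the lowest of the 8 values in 17 of the 70 members (24.3%), against 12.5% and 16.0% of all genes. The highest value stood in I3CA replicate 4 in 14 members (20.0%, against 15.3% of all genes) and in DMSO replicate 4 in 14 as well. DMSO replicate 1 held the lowest value in 2 members (2.86%, against 9.98% of all genes).

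**Figure D4:**
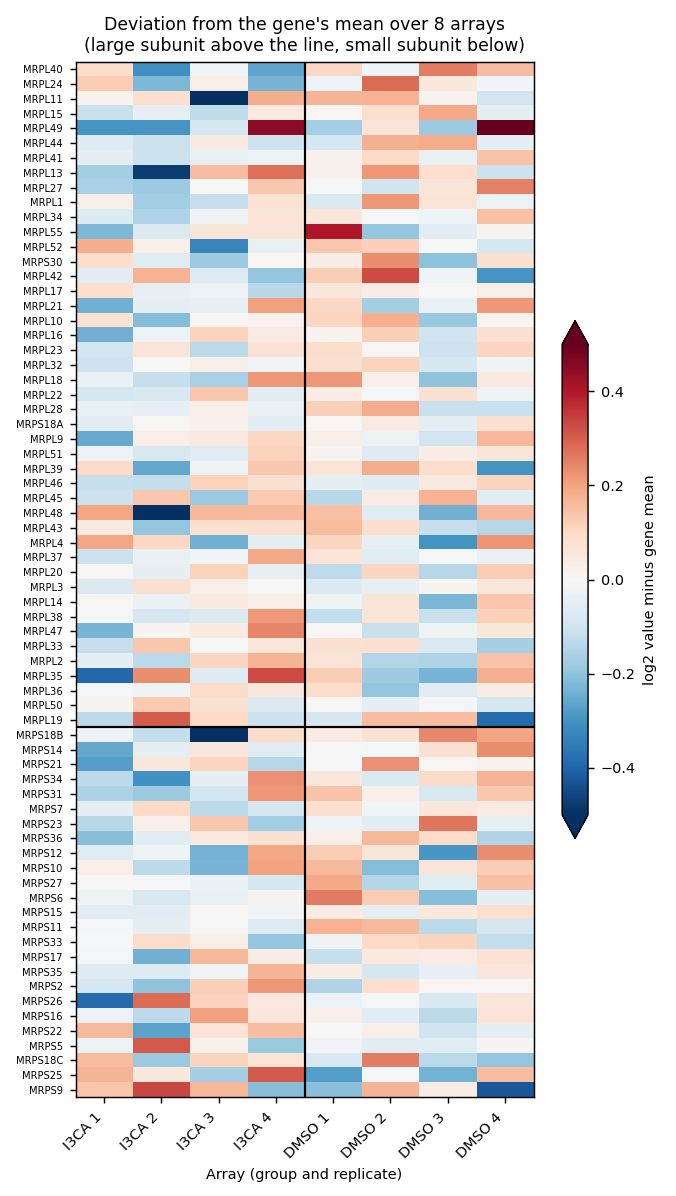
Log2 value of each of the 70 members (rows) in each array (columns, I3CA at left) minus the member's mean over the 8 arrays, with colours saturating at ±0.5. No column is of 1 colour throughout, and I3CA replicates 1 and 2 hold the lowest value of 17 members each.

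MRPS18B had the most negative difference of the family. It is a small subunit protein counted here as mitochondrion-specific, although it is 1 of 3 relatives of the bacterial protein S18. It is also known to bind the retinoblastoma protein. Its log2 values (probe set 17006326) were 9.53, 9.43, 9.05 and 9.64 with I3CA, against 9.59, 9.62, 9.79 and 9.75 with DMSO. The lowest value was that of I3CA replicate 3, and I3CA replicate 4 lay above 2 DMSO arrays. The difference was -0.28 ± 0.12 (SE), with an unadjusted p of 0.049 and a limma adjusted p = 1.00, and the means were 9.41 ± 0.26 with I3CA and 9.69 ± 0.10 with DMSO (SD, n = 4 each). Without I3CA replicate 3 the difference was -0.15.

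MRPL40 was the other member with an unadjusted p under 0.05. It is a mitochondrion-specific large subunit protein whose gene lies in the chromosome 22 region deleted in DiGeorge syndrome. Its log2 values (probe set 16927045) were 9.106, 8.709, 9.001 and 8.751 with I3CA, against 9.118, 8.995, 9.270 and 9.171 with DMSO. I3CA replicates 2 and 4 lay below every DMSO array, and I3CA replicates 1 and 3 lay among them, replicate 3 only just above the lowest. The difference was -0.25 ± 0.11 (SE; unadjusted p of 0.044, limma adjusted p = 1.00), with means of 8.89 ± 0.19 with I3CA and 9.14 ± 0.11 with DMSO (SD, n = 4 each). Neither gene kept an unadjusted p under 0.05 in all fits that left out 1 array.

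At the other end stood 2 small subunit genes. MRPS9 has a bacterial homologue whose tail reaches the transfer RNA in the ribosome. Its log2 values (probe set 16883860) were 8.87, 9.07, 8.90 and 8.52 with I3CA, against 8.52, 8.90, 8.77 and 8.31 with DMSO. The groups overlapped, and the difference was 0.21 ± 0.15 (SE; unadjusted p of 0.18, limma adjusted p = 1.00). It was 0.11 without DMSO replicate 4, 0.14 without I3CA replicate 2 and 0.32 without I3CA replicate 4. MRPS25, a mitochondrion-specific protein, had log2 values (probe set 16951107) of 8.40, 8.28, 8.06 and 8.53 with I3CA, against 7.95, 8.22, 7.99 and 8.38 with DMSO. Its difference was 0.18 ± 0.13 (SE; unadjusted p of 0.18, limma adjusted p = 1.00), and I3CA replicate 3 lay below 2 DMSO arrays. Without I3CA replicate 4 it was 0.11 and without DMSO replicate 1 it was 0.12. In both genes the difference was smaller than the whole range within either group.

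**Figure D5:**
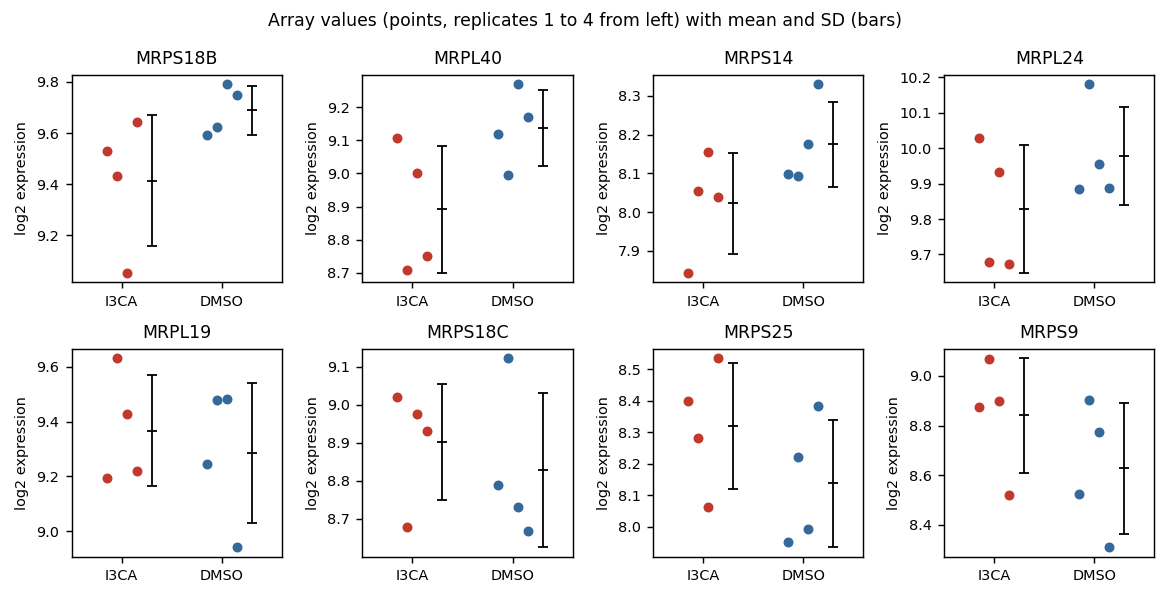
Log2 expression of the 4 members with the smallest and the 4 with the largest differences, in each array (points, replicates 1 to 4 from the left within a group) with the mean and SD of the 4 arrays (bars); each panel has its own scale. The groups overlap in every panel, in MRPS18B because I3CA replicate 4 at 9.64 lies above DMSO replicates 1 and 2 at 9.59 and 9.62.

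The promoters of these 4 genes are shown because the genes mark the ends of the family's differences and because AHR acts by binding DNA near its targets. Capitals mark every match, on either strand, to any of 4 runs of letters. These are the core of the AHR element (GCGTG) and only a part of the NRF1 element (TGCGCA). The others are an ETS element bound by GABPA (CCGGAAG) and a YY1 element (AAGATGGCG). NRF1, GABPA and YY1 are transcription factors known for genes of mitochondrial proteins. Each sequence holds the 250 bases before the gene's start, from RefSeq (GRCh38.p14), at chr6:30617590-30617839 (+) for MRPS18B, chr22:19432295-19432544 (+) for MRPL40, chr3:15065316-15065565 (-) for MRPS25 and chr2:105037819-105038068 (+) for MRPS9, 5′ to 3′ on the strand of the gene.
MRPS18B: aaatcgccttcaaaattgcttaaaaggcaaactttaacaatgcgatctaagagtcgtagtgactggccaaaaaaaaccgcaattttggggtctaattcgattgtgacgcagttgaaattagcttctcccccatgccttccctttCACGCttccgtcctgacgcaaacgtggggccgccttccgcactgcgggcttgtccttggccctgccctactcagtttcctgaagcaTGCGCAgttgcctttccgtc
MRPL40: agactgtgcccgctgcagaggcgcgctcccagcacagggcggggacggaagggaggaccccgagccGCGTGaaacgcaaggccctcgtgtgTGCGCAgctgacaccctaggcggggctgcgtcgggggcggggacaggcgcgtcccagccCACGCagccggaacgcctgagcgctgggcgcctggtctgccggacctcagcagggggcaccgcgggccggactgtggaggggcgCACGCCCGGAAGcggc
MRPS25: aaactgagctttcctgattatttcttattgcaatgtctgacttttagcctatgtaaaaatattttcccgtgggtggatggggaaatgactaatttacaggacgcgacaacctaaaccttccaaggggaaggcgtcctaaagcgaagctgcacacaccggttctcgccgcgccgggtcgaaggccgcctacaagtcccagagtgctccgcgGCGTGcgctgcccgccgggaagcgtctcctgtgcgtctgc
MRPS9: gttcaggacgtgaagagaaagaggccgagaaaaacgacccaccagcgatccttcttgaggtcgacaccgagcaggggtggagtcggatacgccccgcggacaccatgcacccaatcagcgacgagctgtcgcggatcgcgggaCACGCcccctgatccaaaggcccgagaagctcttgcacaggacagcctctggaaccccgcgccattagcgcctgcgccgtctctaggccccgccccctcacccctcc
All 4 sequences held the GCGTG core, MRPL40 in 3 places (beginning at -184, -100 and -16 from the start) and the others in 1. Whether the core goes with the differences was not tested. MRPS18B and MRPL40 also held TGCGCA, at -20 and -159, and MRPL40 held CCGGAAG at -11. In MRPL40 this last match directly follows a GCGTG core on the other strand, without overlap.

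Promoter windows were found for 63 of the 70 members, 79 windows in all, each running from 250 bases before to 50 after a start. GCGTG or its reverse stood in 57.0% of the members' windows, against 43.0% of the 22198 windows of protein-coding genes and 36.5% of all 35116 windows. For TGCGCA the shares were 19.0% of the members' windows, 9.88% of those of protein-coding genes and 8.24% of all. CCGGAAG stood in 36.7%, against 12.8% and 10.3%, and AAGATGGCG in 15.2%, against 2.41% and 1.75%. Counted per gene, with at least 1 window holding the letters, the shares for GCGTG were nearer, 58.7% of the 63 members and 50.4% of the 15842 protein-coding genes. Per gene TGCGCA stood in 20.6% of members and 12.7% of protein-coding genes, CCGGAAG in 41.3% and 16.5%, and AAGATGGCG in 19.0% and 3.21%. The median GC content was 60.3% in the members' windows, 62.3% in those of protein-coding genes and 58.7% in all. A match is a run of letters and not a measured binding site.

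Some members had a start facing that of a neighbouring gene. Of the 63 members with a promoter window, 17 (27.0%) had another protein-coding gene starting in the opposite direction within 1000 bases upstream, against 12.3% of 15842 protein-coding genes. MRPL46 and MRPS11 face each other over 320 bases and are both counted among the 17. Their differences were -0.02 ± 0.09 and -0.06 ± 0.09 (SE). MRPS12 lies 181 bases from SARS2, which encodes the mitochondrial seryl-tRNA synthetase, and the differences were -0.07 ± 0.13 for MRPS12 and 0.02 ± 0.14 for SARS2. For MRPS18B the facing gene is PPP1R10, at a difference of -0.04 ± 0.09, and for MRPL40 it is the histone chaperone gene HIRA, at -0.07 ± 0.08. Facing genes of 14 members were measured, with differences from -0.08 to 0.09. Of them 0 had an unadjusted p under 0.05 in the limma fit, where 3.16% of all genes did.

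The large subunit's catalytic core and the base of its stalk were represented by MRPL3, MRPL10 and MRPL11. MRPL3, whose bacterial homologue reaches the peptidyl transferase centre, had log2 values of 10.94, 11.09, 11.04 and 11.01 with I3CA, against 10.94, 10.97, 11.02 and 11.07 with DMSO. These ranges lay almost on top of each other, at a difference of 0.02 ± 0.07 (95% interval -0.14 to 0.18). MRPL11, at the base of the stalk that recruits translation factors, had 9.23, 9.29, 8.66 and 9.39 with I3CA, against 9.38, 9.38, 9.23 and 9.11 with DMSO. Its difference was -0.13 ± 0.15, and without I3CA replicate 3 it was 0.03. MRPL10, also at the base of the stalk, differed by -0.06 ± 0.10. MRPL32, which is matured by the m-AAA protease before it joins the subunit, differed by -0.05 ± 0.08.

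The large subunit proteins counted as mitochondrion-specific included MRPL41, MRPL44, MRPS18A and MRPS30. MRPL41, also reported in p53-linked growth control, had 9.92, 9.86, 9.93 and 9.94 with I3CA, against 9.99, 10.06, 9.93 and 10.11 with DMSO. Only DMSO replicate 3 lay among the I3CA arrays, and the difference was -0.11 ± 0.07 (unadjusted p of 0.17). MRPL44, which carries a ribonuclease III-like domain and is mutated in an infantile cardiomyopathy, differed by -0.11 ± 0.09. MRPS18A differed by -0.04 ± 0.07 and MRPS30 by -0.07 ± 0.11. Of other large subunit genes, MRPL50 is counted as mitochondrion-specific, and MRPL24, MRPL19 and MRPL36 as having bacterial homologues. MRPL24 stood at -0.15 ± 0.11. On the upper side MRPL19, MRPL50 and MRPL36 stood at 0.08 ± 0.14, 0.07 ± 0.08 and 0.06 ± 0.08. The groups overlapped in each of these genes.

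In the small subunit, the named genes include one at the decoding centre and several mutated in mitochondrial translation disorders. MRPS12, whose bacterial homologue sets decoding accuracy, had log2 values of 8.99, 9.02, 8.81 and 9.24 with I3CA, against 9.17, 9.11, 8.75 and 9.28 with DMSO. Replicate 3 was the lowest and replicate 4 the highest in both groups, and the difference was -0.07 ± 0.13. Of the disease genes, MRPS2 differed by 0.02 ± 0.10, MRPS7 by -0.08 ± 0.08, MRPS16 by 0.05 ± 0.09, MRPS22 by 0.06 ± 0.10 and MRPS34 by -0.13 ± 0.11. MRPS14 stood at -0.15 ± 0.09 and MRPS21 at -0.13 ± 0.10. MRPS27, which carries repeats of a kind that binds RNA, differed by -0.06 ± 0.09. MRPS36, now assigned to the alpha-ketoglutarate dehydrogenase complex, differed by -0.07 ± 0.10.

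The relatives MRPS18A, MRPS18B and MRPS18C were not alike in sign. MRPS18C, the relative with the bacterial place in the small subunit, had log2 values of 9.02, 8.68, 8.97 and 8.93 with I3CA, against 8.79, 9.12, 8.73 and 8.67 with DMSO. Its difference was 0.07 ± 0.12, with the highest array in the DMSO group. Differences among the 3 relatives were not tested.

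RefSeq lists pseudogenes under the names of 38 members, 94 in all, with 9 for MRPS21, 6 each for MRPS17, MRPS18C, MRPS36 and MRPL42. Whether probes of these rows also bind pseudogene transcripts was not tested.

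Mitoribosomal proteins named otherwise had 6 measured genes of 7 listed symbols. Of these 0 passed in either direction, 3 lay below 0, and the median difference was 0.02. ICT1, a peptidyl-tRNA hydrolase built into the large subunit, had log2 values of 9.77, 9.61, 9.62 and 9.76 with I3CA, against 9.41, 9.56, 9.41 and 9.77 with DMSO. The highest DMSO array lay within the I3CA range, and the difference was 0.15 ± 0.10 (unadjusted p of 0.15). MRP63 differed by 0.07 ± 0.08 and GADD45GIP1, a large subunit protein that also binds growth-arrest factors, by -0.06 ± 0.07.

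The assembly factors and rRNA-modifying enzymes of the mitoribosome had 27 measured genes, 19 of them below 0 (70.4%, against 53.4% of all genes). Of the 27, 0 passed the adjusted threshold and 1 lay lower at an unadjusted p under 0.05, where 1.42% of all genes did. Their median difference was -0.03. That gene was MTERFD1, a factor needed to build the large subunit and now called MTERF3. Its values were 8.37, 8.30, 8.19 and 8.41 with I3CA, against 8.39, 8.44, 8.75 and 8.58 with DMSO, a difference of -0.22 ± 0.10 (unadjusted p of 0.045, limma adjusted p = 1.00). DMSO replicate 1 lay within the I3CA range. SPG7, a subunit of the m-AAA protease that matures MRPL32, differed by 0.17 ± 0.08, and RBFA, which helps mature the small subunit RNA, by -0.15 ± 0.09.

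Factors that act on the finished ribosome also did not pass. Of 17 listed translation factors 15 were measured, with 0 past the threshold and a median difference of 0.01. Below 0 lay 6 of them (40%, against 53.4% of all genes). The elongation factor GFM1 differed by -0.12 ± 0.10, the recycling factor GFM2 by -0.10 ± 0.09 and the initiation factor MTIF2 by 0.09 ± 0.07. Mitochondrial aminoacyl-tRNA synthetases and the amidotransferase had 19 measured genes, 12 of them below 0 (63.2%), with 0 past the threshold and a median of -0.03. FARS2, WARS2 and CARS2, which charge transfer RNAs with phenylalanine, tryptophan and cysteine, differed by 0.14 ± 0.09, -0.13 ± 0.09 and -0.11 ± 0.09.

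Regulators of mitochondrial transcription and biogenesis had 15 measured genes, with 0 past the threshold and a median of -0.03. Below 0 lay 12 of them (80%, against 53.4% of all genes). TEFM, the mitochondrial transcription elongation factor, had 7.93, 7.72, 7.70 and 7.57 with I3CA, against 7.79, 8.14, 7.87 and 8.04 with DMSO. I3CA replicate 1 lay above 2 DMSO arrays, and the difference was -0.23 ± 0.11 (unadjusted p of 0.050). MTERF, which binds mitochondrial DNA at the end of the ribosomal RNA genes, differed by -0.20 ± 0.16, and by -0.04 without I3CA replicate 2 or -0.12 without DMSO replicate 4. GABPB1, the partner of GABPA, differed by -0.12 ± 0.10. The factors whose elements were searched in the promoters differed by -0.03 ± 0.10 for NRF1, -0.08 ± 0.09 for GABPA and 0.09 ± 0.09 for YY1. The last 3 genes were named for their elements and not by the rule for named genes.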

How the data were processed

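RNA of the 8 samples was labelled with biotin and hybridised to whole-transcript arrays. The deposited table holds log2 values that the authors made with oligo and RMA, per the submitters' processing notes. Tool versions, genome build, any filter on rows, scan date and slide are not given in the sources used here, so no batch could be tested. The labels call the arrays of a group biological replicates but do not say that each came from its own culture. The p-values therefore measure the spread between these arrays, part of which may be technical.

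Of 13486 rows, 11850 had 1 symbol in GEO's platform annotation, 657 several and 979 were not listed. The brightest row stood for a gene, which left 11822 genes; every member had 1 row. I3CA and DMSO were compared with limma 3.58.1 in R 4.3.3 (lmFit, eBayes, two-sided, no covariate, all 8 arrays), with Benjamini-Hochberg adjustment over all genes at 0.05. The fit was tested on simulated data whose changes were larger than any difference of a member here. Recovery of smaller changes was not tested. Equal replicate numbers were not taken as pairs.

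Members and lists were chosen with earlier results of these data known. Named are the 6 largest and 6 smallest differences, members with an unadjusted p under 0.05 or groups that do not overlap, members of known role, and up to 3 genes with the smallest p in each of 5 related lists. Of the members of known role, MRPL12 had no row of its own. Promoters were matched by RefSeq symbol. Alternatives covered the arrays used, the replicate block, the variance model, array weights, normalization, a brightness filter and the rows per gene. The number of arrays limits the precision.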

Additional observations from a re-analysis of the deposited data

Results flagged for a closer look

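One array stood apart from the 3 others of its group in 11 of the 190 sets of 4 values examined; chance alone gives about 9.5 (1 in 20). Of single members, MRPL22 stood at 8.31 and MRPL28 at 8.39 in I3CA replicate 3, with the other I3CA arrays at 8.09 to 8.12 and at 8.32. In I3CA replicate 2, MRPL43 stood at 10.3 (others 10.54 to 10.58), MRPL48 at 8.52 (others 9.22 to 9.26) and WARS2 at 8.32 (others 8.61 to 8.67). In the DMSO group MRPS17 stood at 8.13 in replicate 1 (others 8.28 to 8.31), MRPS21 at 9.80 in replicate 2 (others 9.57 to 9.59) and MRPS23 at 9.19 in replicate 3 (others 8.87 to 8.90). The mean over all members was 9.38 in DMSO replicate 3, with the other DMSO arrays at 9.44 to 9.45, and the mean over the large subunit was 9.46 there, with the others at 9.53 to 9.54. The mean of the translation factors was 9.51 in I3CA replicate 1, with the other I3CA arrays at 9.57 to 9.58.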

How the results depend on the processing

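No member passed the adjusted threshold under any of 17 alternatives, and the median difference of all members stayed between -0.07 and -0.03. The large subunit median ran from -0.07 to -0.02 and the small subunit median from -0.051 to -0.024 (without DMSO replicate 1) when single arrays were left out. The count at an unadjusted p under 0.05 was 2 in the fit of all arrays, where 3.16% of all genes had such a p. With single arrays left out it was 0 to 4, where 2.77% to 4.00% of all genes did. The count of 4 came without I3CA replicate 4, where the share of all genes was 3.39%. The count was 1 without both arrays numbered 4, with array weights, with quantile normalization repeated or with arrays centred on their medians. In these fits 3.17% to 3.58% of all genes had such a p. With the replicate block the count was also 2, where 4.71% of all genes had such a p, with a different make-up. MRPL40 stayed (p of 0.027), MRPS18B left (p of 0.063) and MRPS9 entered as higher (p of 0.026). MTERFD1 left too (p of 0.070), and 0 members passed the adjusted threshold. Equal numbers were not shown to pair the arrays: deviations from the group means correlated at 0.04, 0.07, 0.05 and 0.32 for numbers 1 to 4, and only I3CA replicate 4 correlated best with its own number. Members whose groups do not overlap, 0 with all arrays, numbered 0 to 4 with single arrays left out (4 without I3CA replicate 4, or 5.71% against 4.23% of all genes) and 5 without both arrays numbered 4 (7.14% against 7.66% of all genes). Of 702 refits of the 42 named genes, 13 turned the sign, all in 7 members, among them MRPL11 and MRPL19 near the ends of the family's range: MRPL3 (-0.0047 to 0.046 with single arrays left out), MRPL10 (-0.13 to 0.0049), MRPL11 (-0.22 to 0.029), MRPL19 (-0.034 to 0.15), MRPS2 (-0.046 to 0.093), MRPS12 (-0.17 to 0.0028) and MRPS16 (-0.012 to 0.10). Without both arrays numbered 4, MRPS2 differed by -0.039.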
